A study of Mus musculus with 4 samples.

Results

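The minor spliceosome removes a small class of introns, called U12-type introns, from the transcripts of a limited set of host genes, and its recognition particle is built on the small nuclear RNAs U11 and U12. U11 pairs with the 5′ splice site and U12 with the branch site, and a set of dedicated proteins holds the pair together as a di-snRNP. U4atac and U6atac, which are also specific to this machine, and proteins shared with the major spliceosome complete it. Nuclear RNAs of this kind are trimmed at their 3′ ends, and the RNA exosome, a 3′-to-5′ ribonuclease complex, takes part in the processing and decay of many of them.

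The members were the 9 gene symbols Rnu11, Rnu12, Snrnp25, Snrnp35, Snrnp48, Rnpc3, Zcrb1, Zmat5 and Zrsr2. They were chosen with earlier results of these data known. Of the 9 symbols, 8 had a row among the 22883 rows of the deposited table, 1 row each, and all 8 were among the 9336 rows tested. They comprise 2 snRNA rows and 6 protein-gene rows. Rnpc3, which encodes the protein that bridges U11 and U12, had no row under that symbol or the older symbols searched, and it was not analysed here. RNA came from V6.5 mouse embryonic stem cell clones with a conditional knockout of Exosc3, a core exosome subunit, grown without feeders. Every clone carried the knockout design: the Exosc3-present group (2 libraries) was kept in 0.1 µg/ml doxycycline, and the Exosc3-depleted group (2 libraries) was taken off it for 3 days. Loss of Exosc3 and withdrawal of doxycycline cannot be told apart, and the labels do not say how many clones or cultures the libraries came from, so p-values measure only the spread between these libraries, which may be technical.

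Values are FPKM, that is fragments divided by the length of the gene model and by a library total. Library totals recovered from the spacing of the values were 60851774 and 55233386 fragments in the Exosc3-present libraries. In the Exosc3-depleted libraries they were 38095698 and 41968325. Fragments in the listed gene models made up 49.7% and 51.8% of the Exosc3-present totals, against 42.4% and 44.0% of the Exosc3-depleted ones. The part of this difference in the falls below was not tested. Exosc3 was at 24.2 and 23.2 FPKM in the Exosc3-present libraries and at 0.635 and 0.691 in the Exosc3-depleted libraries, so the targeted RNA matched all 4 labels. Embryonic stem cell markers (4 of 6 with a row) summed to 769 to 784 FPKM in the Exosc3-present and 414 to 519 in the Exosc3-depleted libraries. The summed trophectoderm markers (5 of 5 with a row) were at 22.2 to 24.1 and 90.3 to 122 FPKM, and the primitive endoderm markers (4 of 4) at 10.02 to 12.5 and 42.2 to 43.8. Fibroblast feeder markers (6 of 6 with a row) summed to 2.68 to 2.83 and 0.860 to 1.27 FPKM, with Postn and Dcn at 0 in all 4 libraries. The part of these marker shifts in the results below was not tested.

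The RNAs themselves are shown because they carry the larger change. Both are from GENCODE M21 (GRCm38 assembly), written 5′ to 3′ as DNA. In Rnu11 the first capitals mark the longest run (AAAGG, bases 3 to 7) that is complementary to the U12-type 5′ splice site ATATCCTTT. In Rnu12 they mark the longest run (TAAGGAA, bases 19 to 25) complementary to the branch site TTCCTTAAC. The second capitals mark the Sm site, the A-and-T run on which the Sm protein ring is assembled.
Rnu11: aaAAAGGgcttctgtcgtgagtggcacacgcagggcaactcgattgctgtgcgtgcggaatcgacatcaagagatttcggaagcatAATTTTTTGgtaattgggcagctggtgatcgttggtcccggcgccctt
Rnu12: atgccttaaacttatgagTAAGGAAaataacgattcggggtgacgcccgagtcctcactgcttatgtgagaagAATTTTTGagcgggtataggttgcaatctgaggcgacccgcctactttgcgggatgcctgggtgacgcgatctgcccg

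The Sm-type runs AATTTTTG and AATTTTTTG, searched on the transcript strand, occur in 34 of 1383 transcripts that GENCODE M21 lists as snRNA (2.46%), a class that includes many pseudogene copies. The model behind the deposited Rnu11 row was recovered as 108 bases long and that behind Rnu12 as 150 bases. These equal the RefSeq lengths of 108 and 150 bases in GRCm38. The RefSeq Rnu11 model leaves out the first 27 bases of the 134-base GENCODE transcript, including the capitals that pair with the splice site, and keeps the Sm site. The Rnu11 row may therefore not count the 5′ end of U11.

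The first comparison asked what happened to the 2 snRNAs when Exosc3 was lost. Both rows rose, Rnu12 more than Rnu11, and neither row can tell the trimmed snRNA from longer RNAs that cover the model. Rnu12, the branch-site RNA, was at 52.8 and 50.6 FPKM in the Exosc3-present libraries and at 312 and 333 in the Exosc3-depleted libraries. The 2 Exosc3-depleted libraries lay close together, and both were far above either Exosc3-present library. The group means were 51.7 ± 1.58 (SD, n = 2) and 322 ± 14.6 FPKM (n = 2), a 6.24-fold rise, with a log2 fold change of 2.63 (SE 0.15, limma adjusted p = 0.000165). All log2 fold changes here are on log2(FPKM + 0.5), which understates changes of low genes. The row held 482 and 419 fragments in the Exosc3-present libraries against 1784 and 2095, so the rise is also present in the raw number of fragments.

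Rnu11, the 5′ splice-site RNA, was at 2103 and 1925 FPKM in the Exosc3-present libraries and at 4521 and 4836 in the Exosc3-depleted libraries. Again the groups did not overlap, and the libraries of each group lay within a narrow range. The means of 2014 ± 126 and 4679 ± 223 FPKM (SD, n = 2 each) differ 2.32-fold, with a log2 fold change of 1.22 (SE 0.15, limma adjusted p = 0.00129). The row rested on 13819, 11483, 18601 and 21920 fragments in that order. Of all tested rows 12.6% were called higher and 22.2% had Exosc3-depleted values wholly above the Exosc3-present ones. The change of Rnu12 exceeded that of 99.4% of tested rows and the change of Rnu11 that of 94.8%. Both calls held in all 15 alternatives, with log2 fold changes of 2.58 to 3.01 for Rnu12 and 1.08 to 1.56 for Rnu11.

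**Figure D1:**
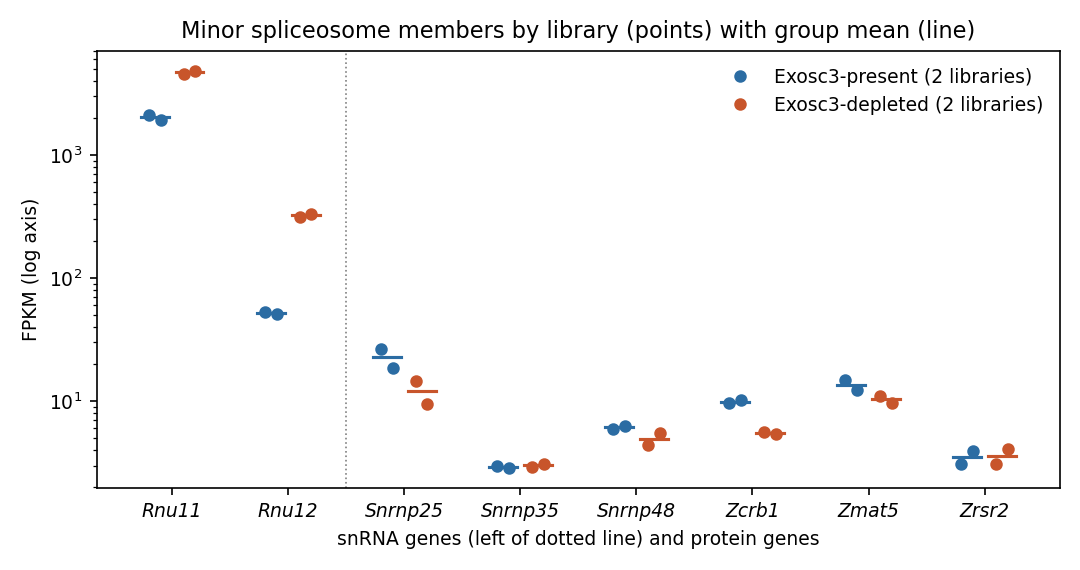
FPKM of the 8 members with a row (log axis) in each library: points are libraries, short lines are group means, and n = 2 per group. Rnu12 moves from about 51.7 to 322 FPKM and Rnu11 from 2014 to 4679, while the protein genes stay within 2.87 to 26.6 FPKM.

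Because the 2 snRNAs rose by different amounts, their ratio shifted. Rnu11 FPKM divided by Rnu12 FPKM was 39.8 and 38.1 in the Exosc3-present libraries and 14.5 and 14.5 in the Exosc3-depleted libraries. The ratio was thus lower in both Exosc3-depleted libraries than in either Exosc3-present one; it is given as a description, without a test. Models this short hold few possible fragments, and the fragment sizes of the libraries were not used here, so the ratio is not a count of U11 and U12 molecules. In GENCODE M21 the noncoding gene Gm28872 covers all 134 bases of Rnu11 on the opposite strand. The libraries keep strand, but whether counting used it is not given in the sources used here, so fragments of the 2 genes cannot be told apart. Genomic copies of U11 and U12 could share fragments with these rows in the same way, since the handling of multiply mapped fragments is not given either.

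The protein-coding neighbours of the 2 snRNA genes, looked at after the snRNA values were seen, were not called higher. Poldip3 starts 259 bases from Rnu12 on the opposite strand (GRCm38), and was at 54.4 and 56.7 FPKM in the Exosc3-present and 61.6 and 47.7 in the Exosc3-depleted libraries (log2 fold change -0.03, limma adjusted p = 0.896). Its groups overlapped and its sign was positive under the other scalings. Cyb5r3, on the other side of Rnu12, was at 37.8 ± 2.88 and 27.04 ± 2.58 FPKM (SD, n = 2 each; limma adjusted p = 0.0633). Cyb5r3 was called lower with the replicate number as a block (adjusted p = 0.0434) and without Exosc3-depleted replicate 1 or 2 (adjusted p = 0.00534 and 0.0319). Taf12 and Gmeb1, which flank Rnu11, had log2 fold changes of -0.81 and -0.71 (limma adjusted p = 0.0145 and 0.0231). Neither of these falls passed under the 3 other scalings or without either Exosc3-present library.

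The second comparison set the proteins of the U11/U12 particle beside its RNAs. None of the 6 protein genes rose: 2 fell and 4 did not pass. Of all tested rows 42.7% were called in either direction and 30.1% were called lower, so the share is near the background. At an unadjusted p under 0.05 the same count of 2 was lower and none was higher. Of the 9336 tested rows, 4801 passed that threshold in either direction. The median log2 fold change of the 6 protein genes was -0.33, beside -0.27 over all tested rows. Zcrb1, which encodes an RNA-binding protein of the particle (U11/U12-31K), was at 9.59 and 10.2 FPKM in the Exosc3-present and 5.62 and 5.42 in the Exosc3-depleted libraries. The groups were separate and tight. The means of 9.91 ± 0.457 and 5.52 ± 0.143 FPKM (SD, n = 2 each) differ 1.79-fold, with a log2 fold change of -0.79 (SE 0.18, limma adjusted p = 0.0116).

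Snrnp25, which encodes a U11-bound protein with a ubiquitin-like fold (U11/U12-25K), was at 26.6 and 18.7 FPKM in the Exosc3-present and 14.6 and 9.42 in the Exosc3-depleted libraries. The groups did not overlap, but the libraries within each group differed widely. The means were 22.7 ± 5.61 and 12.03 ± 3.69 FPKM (SD, n = 2 each), with a log2 fold change of -0.90 (SE 0.27, limma adjusted p = 0.0334). Under median-of-ratios scaling, quantile normalization and scaling without the 50 highest rows, log2 fold changes were -0.49, -0.50 and -0.47 for Zcrb1 and -0.59, -0.60 and -0.56 for Snrnp25, and neither passed. The Zcrb1 call also ended without either Exosc3-present library (adjusted p = 0.155 and 0.229). The Snrnp25 call ended without Exosc3-present replicate 1 (log2 fold change -0.65, adjusted p = 0.267) and when low rows were kept in the test (adjusted p = 0.077).

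The other 4 protein genes did not pass. Zmat5, which encodes a zinc finger protein of the particle (U11/U12-20K), was at 14.8 and 12.4 FPKM in the Exosc3-present and 11.05 and 9.69 in the Exosc3-depleted libraries (log2 fold change -0.37, limma adjusted p = 0.154). Snrnp48, which encodes a zinc finger protein (U11-48K) that contacts the 5′ splice site, was at 5.93 and 6.31 FPKM against 4.37 and 5.49 (log2 fold change -0.29, limma adjusted p = 0.264). Both genes had all Exosc3-depleted values below the Exosc3-present ones, as 50.9% of all tested rows did. Zmat5 passed without Exosc3-depleted replicate 1 (log2 fold change -0.46, adjusted p = 0.0213) and Snrnp48 without Exosc3-depleted replicate 2 (-0.44, adjusted p = 0.0143).

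Snrnp35, the gene for a U11 protein (U11-35K) related to the U1 protein that Snrnp70 encodes, was at 2.95 and 2.87 FPKM against 2.93 and 3.08. Its log2 fold change of 0.04 had a 95% interval of -0.38 to 0.46, and the groups overlapped. Zrsr2, whose protein recognises the 3′ splice site of U12-type introns, was at 3.07 and 3.93 FPKM against 3.11 and 4.08, again overlapping. Its log2 fold change was 0.03 with a 95% interval of -0.49 to 0.54. Changes of either gene within those intervals could not be told from no change here. Protein-gene rows held 122 to 1348 fragments per library.

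**Figure D2:**
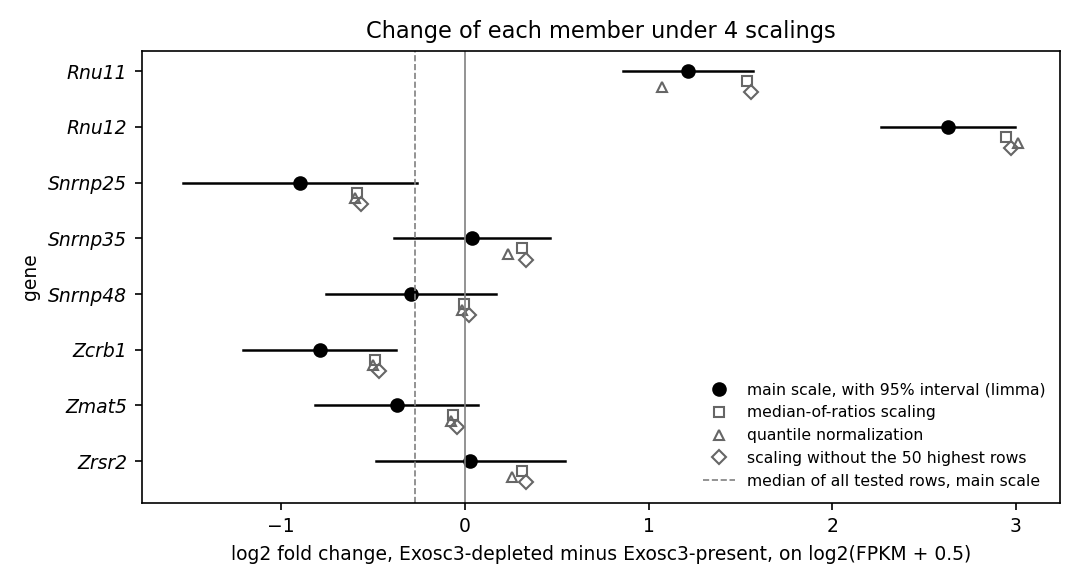
Log2 fold change (Exosc3-depleted minus Exosc3-present, on log2(FPKM + 0.5)) of each member, with its 95% interval from limma (filled circles) and with 3 other scalings (open symbols). The dashed line is the median of all tested rows, -0.27. Rnu11 and Rnu12 lie right of 0 under all 4 scalings, whereas Zcrb1 and Snrnp25 lie left of 0 but move towards it.

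The contrast between RNAs and proteins was taken per library as the mean log2(FPKM + 0.5) of the 2 snRNA rows minus that of the 6 protein-gene rows. It was 5.33 and 5.29 in the Exosc3-present libraries and 7.55 and 7.67 in the Exosc3-depleted libraries. The group means therefore differ by 2.30 on the log2 scale, while libraries of the same group differ by far less (SD 0.032 and 0.083, n = 2 each). No p-value is given, since the members were chosen as a set, and 2 libraries against 2 could not pass an exact test. The summed FPKM of the 6 protein genes was 63.0 and 54.4 in the Exosc3-present and 41.7 and 37.2 in the Exosc3-depleted libraries.

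Ordered by level, the members ran Rnu11, Rnu12, Snrnp25, Zmat5, Zcrb1, Snrnp48, Zrsr2 and Snrnp35 in both groups. In the Exosc3-present libraries no neighbours in that order overlapped. In the Exosc3-depleted libraries Snrnp25 overlapped Zmat5 and Zcrb1 overlapped Snrnp48. Rnu11 had the 24th highest mean FPKM of the table and Rnu12 the 221st. The rows most like Rnu11 in their course over the 4 libraries, by the root-mean-square difference of centred log2 values among the 6637 rows whose mean reached 2 FPKM, were Vegfc (0.0084), AK007836 (0.020) and Ptprn (0.028). For Rnu12 they were Jun (0.057), AK013668 (0.061) and Fgfbp3 (0.070). With 4 libraries such likeness mainly reflects the size of the difference between groups.

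Other structured noncoding RNAs were compared as RNAs that, like U11 and U12, encode no protein. Of 17 listed, 5 had a row, and 3 of these rose while Vaultrc5 and Rpph1 did not pass. The Rpph1 row held only 16 to 27 fragments per library, at 1.24 to 1.96 FPKM. Of all tested rows 12.6% were called higher. Terc, the telomerase RNA, was at 909 and 762 FPKM in the Exosc3-present and 2060 and 2176 in the Exosc3-depleted libraries (log2 fold change 1.35, limma adjusted p = 0.00118). Rmrp, the RNA of RNase MRP, rose by 0.70 on the log2 scale (limma adjusted p = 0.0142), a call that ended without Exosc3-present replicate 2 (adjusted p = 0.136). The Rnu1b2 row, a U1 snRNA gene, went from 0.463 and 0.324 to 4.39 and 4.31 FPKM (log2 fold change 2.44, limma adjusted p = 0.000286). Its model was recovered as 1172 bases, much longer than U1 itself, so the row is not a measure of mature U1. Vaultrc5, a vault RNA whose model was recovered as 345 bases, was at 985 and 913 against 1083 and 837 FPKM, and its groups overlapped. It was called higher under quantile normalization (log2 fold change 0.42, limma adjusted p = 0.0258) and in none of the other 14 alternatives. Of the 115 tested rows with a model of 200 bases or less, a bound set after the values were seen, 27 were called higher and 29 lower (23.5% and 25.2%, beside 12.6% and 30.1% of all tested rows). No difference between these shares was tested. The other snRNAs of the minor spliceosome, Rnu4atac and Rnu6atac, had no row under those symbols.

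Among the listed protein genes that work with the members, those called were lower, with 2 exceptions in the alternatives, Txnl4b and Sf3b1. Pdcd7 encodes a further U11/U12 protein (U11-59K), and was at 8.76 and 10.7 FPKM in the Exosc3-present and 5.62 and 3.76 in the Exosc3-depleted libraries. The log2 fold change of Pdcd7 stood at -0.998 (SE 0.24, limma adjusted p = 0.0145), but adjusted p was 0.0605 to 0.081 under the 3 other scalings and 0.156 without Exosc3-present replicate 2. It was 1 of 3 tested among the 10 other factors listed as specific to the minor spliceosome; Scnm1 (-0.14) did not pass, nor did Txnl4b (0.42), which encodes a relative of a tri-snRNP protein. Txnl4b was, however, called higher under median-of-ratios scaling, quantile normalization and scaling without the 50 highest rows (log2 fold changes 0.70, 0.66 and 0.72, limma adjusted p = 0.0181, 0.026 and 0.048) and without Exosc3-depleted replicate 1 (adjusted p = 0.0044). These 3 factors therefore gave 0 higher and 1 lower as reported, and 1 higher and 0 lower under each of those scalings. Calls over all tested rows were 1177 higher and 2806 lower as reported. Under those scalings they were 1797 and 1568, 1578 and 1782, and 1583 and 1311. Zrsr1, the paralogue of Zrsr2, had no row under the symbols searched.

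Of the 6 tested Sm ring genes, whose proteins bind the Sm site shown above, 5 fell, with a list median of log2 -0.87. Of all tested rows 30.1% were called lower, and no difference from that share was tested. Snrpg fell from 88.4 ± 3.66 to 40.7 ± 2.33 FPKM (SD, n = 2 each, log2 fold change -1.11, limma adjusted p = 0.00228). Snrpd3 fell by 1.16 and Snrpd2 by 1.07 on the log2 scale. The number of Sm genes called lower was 2, 3 and 1 under median-of-ratios scaling, quantile normalization and scaling without the 50 highest rows. Snrpg was among those called in each. In that order, 1568 of 9343, 1782 of 9336 and 1311 of 9363 tested rows were called lower. Without Exosc3-present replicate 1 or 2 the Sm median was -0.80 or -0.87, beside -0.287 or -0.22 over all tested rows. Of the 6 tested SF3b genes, shared by the U2 and U11/U12 particles, 2 fell, a share near that of all tested rows. They were Phf5a (log2 fold change -1.15, limma adjusted p = 0.00624) and Sf3b2 (-0.69, 0.019). The remaining SF3b genes included Sf3b4 (-0.20). The SF3b median was -0.16 and became positive under the 3 other scalings, where Phf5a was the 1 gene called lower. Without either Exosc3-present library the Sf3b2 call ended too. Sf3b1, which contacts the branch site, was at 18.9 and 23.7 against 13.7 and 32.3 FPKM, overlapping, and was called higher without Exosc3-depleted replicate 1 and lower without Exosc3-depleted replicate 2.

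Of the 14 tested tri-snRNP genes, 6 fell and 8 did not pass (median log2 -0.46). They were led by Snrnp40 (log2 fold change -1.10, limma adjusted p = 0.00333), Eftud2 (-0.86) and Snu13 (-0.70), and 2 were called lower under each of the 3 other scalings. Leaving out Exosc3-present replicate 1 or 2 gave a list median of -0.53 or -0.43, beside -0.287 or -0.22 over all tested rows. Leaving out Exosc3-depleted replicate 1 or 2 gave -0.38 or -0.61, beside -0.202 or -0.377. The Snrnp40 call held in all 15 alternatives. Eftud2 lost its call without Exosc3-present replicate 2, under median-of-ratios scaling (adjusted p = 0.0697) and under quantile normalization (0.0525). Snu13 lost its call without either Exosc3-present library and under each of the 3 other scalings (adjusted p = 0.115 to 0.189). For comparison, 4 of 10 tested genes listed as specific to the major spliceosome fell (median log2 -0.40). They were led by Snrpa1 of the U2 particle (-1.76, limma adjusted p = 0.000613), Snrnp70 of the U1 particle (-1.03) and Sf3a1 (-0.88). In the order median-of-ratios, quantile and without the 50 highest rows, 2, 3 and 2 of these were called lower, and the median moved to -0.081, -0.039 and -0.059. Without Exosc3-present replicate 1 or 2 this median was -0.42 or -0.40, and the Sf3a1 call ended in both. Without Exosc3-depleted replicate 1 or 2 it was -0.49 or -0.34. As reported, the shares of both lists stand near or above the 30.1% of all tested rows called lower. Under the 3 other scalings, in the order above, 1568 of 9343, 1782 of 9336 and 1311 of 9363 tested rows were called lower. No difference from these backgrounds was tested.

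Genes for the assembly and 3′ end processing of snRNPs gave 6 falls among 20 tested, a share at the 30.1% of all tested rows called lower, with a median of log2 -0.33 beside -0.27 over all tested rows. Gemin5, which binds snRNAs and delivers them to the SMN complex, was at 37.2 and 44.3 against 13.7 and 17.04 FPKM (log2 fold change -1.38, limma adjusted p = 0.00202). Gemin4, another subunit of that complex, fell by 1.16 on the log2 scale and Coil, the marker protein of Cajal bodies, by 1.04. The tested Integrator genes Ints1, Ints4 and Ints9 and the SNAPc genes Snapc1 to Snapc5, which act in the 3′ end formation and transcription of snRNAs, did not pass. Under each of the 3 other scalings 3 genes of this list were called lower. Over all tested rows these scalings called 1568 of 9343, 1782 of 9336 and 1311 of 9363 lower. Leaving out Exosc3-present replicate 1 or 2 gave a list median of -0.43 or -0.24, beside -0.287 or -0.22 over all tested rows. Leaving out Exosc3-depleted replicate 1 or 2 gave -0.21 or -0.53, beside -0.202 or -0.377. Gemin5 passed in all of these, whereas Gemin4 lost its call when Exosc3-present replicate 2 was left out (adjusted p = 0.0558) and Coil without either Exosc3-present library (adjusted p = 0.0513 and 0.0927).

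**Figure D3:**
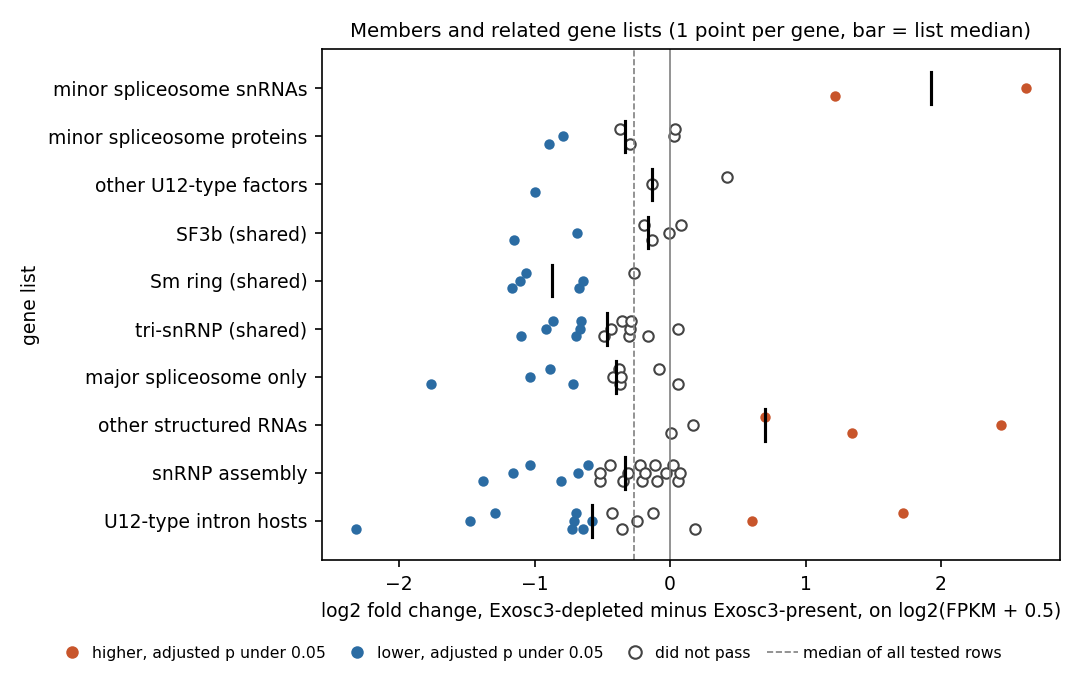
Log2 fold change of every tested gene in the members and the 8 related lists. Each point is a gene, filled where the limma adjusted p was under 0.05 (orange higher, blue lower) and open where it did not pass; bars are list medians and the dashed line is the median of all tested rows, -0.27. The minor spliceosome snRNAs lie at 1.22 and 2.63, right of every spliceosome or snRNP assembly protein gene shown. Terc (1.35), Rnu1b2 (2.44) and the host gene Ercc5 (1.72) also lie right of Rnu11.

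The table also holds host genes of U12-type introns, but as whole-gene FPKM, so it says nothing of whether those introns were spliced. Of 15 tested hosts, 8 fell, 2 rose and 5 did not pass, with a median log2 fold change of -0.57. Of all tested rows 30.1% were called lower and 12.6% higher, so the share that rose is near the background, and the difference of the share that fell was not tested. E2f2, a cell cycle transcription factor, was at 3.14 and 3.38 FPKM in the Exosc3-present and 0.260 and 0.241 in the Exosc3-depleted libraries (log2 fold change -2.32, limma adjusted p = 0.000272). Parp1, a DNA damage sensor, fell by 1.48 on the log2 scale (limma adjusted p = 0.00119) and E2f1 by 1.29 (limma adjusted p = 0.00239). Ercc5, an excision repair nuclease, rose from 2.28 and 2.36 to 6.84 and 11.2 FPKM (log2 fold change 1.72, limma adjusted p = 0.00251), and E2f6, a repressive member of the E2F family, rose by 0.61 (limma adjusted p = 0.0409). Under the 3 other scalings 3 to 4 hosts were called lower and 2 higher, and the median was -0.264, -0.229 and -0.242. Of all tested rows these scalings called 1568 of 9343, 1782 of 9336 and 1311 of 9363 lower, and 1797, 1578 and 1583 higher. The host shares under these scalings are near those backgrounds. Without Exosc3-present replicate 1 or 2 the host median was -0.66 or -0.47, beside -0.287 or -0.22 over all tested rows. The E2f6 call ended in both.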

How the data were processed

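The authors deposited 1 table of FPKM values, per the file headers, with 1 row per gene model and 1 column for each of 4 stranded libraries depleted of ribosomal RNA. Per the submitters' processing notes, reads were handled on mm9 with tools that include STAR, Bowtie2, bedtools, Picard and edgeR; roles and versions are not given in the sources used here, nor is the use of strand. Members and lists were chosen with earlier results of these data known.

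Values were tested as log2(FPKM + 0.5) with limma 3.58.1 in R 4.3.3, trended on intensity, for the 9336 rows that averaged 0.5 FPKM or more. Tests were two-sided, adjusted by Benjamini-Hochberg over those rows and called under 0.05; the variance prior added 4.98 degrees of freedom to 2. This called 1177 rows higher and 2806 lower. N-fold values are ratios of mean FPKM. Fragments, model lengths and library totals were worked out from the steps between FPKM values, whole to within 0.004 of a fragment (looser at high values) for all 15471 rows above 0, taking the smallest length possible. They served depth, limma-voom and the fragment numbers and model lengths given above, and not the main test. Both steps were run on simulated data, where the limma simulation gave both groups the same dispersion. In the data the SD of log2 differences was 0.188 within the Exosc3-present pair and 0.432 within the Exosc3-depleted pair. Unequal spread was therefore not checked.

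Named genes were all members, Exosc3, Pdcd7, the structured RNA rows, the 3 smallest p-values of each other list and the 3 rows most like each snRNA. Rpph1, Sf3b1, Ercc5, E2f6, the neighbouring genes and the Integrator and SNAPc genes were named after their values were seen. List symbols were matched by name or by an older RefSeq symbol of 1 gene only. Alternatives covered pseudocount, filter, scaling, moderation, limma-voom, a replicate block and leaving out each library. For genes outside the members these were added after the data were seen.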

Additional observations from a re-analysis of the deposited data

How the results depend on the processing

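The number of members called higher was 2 in every alternative run, whereas the number called lower was 1 with no filter on low values and 0 under median-of-ratios scaling, quantile normalization and scaling without the 50 highest rows (limma). At an unadjusted p under 0.05 the number lower was 2 with no filter and 1 under each scaling, without a background share. With 1 library left out it was 0 to 3, and 0 came from leaving out Exosc3-present replicate 1 (also 0 at an unadjusted p under 0.05), the lone library being assumed to vary like the other group. The cause was not tested. The snRNA minus protein-gene difference was 2.16 under quantile normalization and 2.24 to 2.36 with 1 library left out, and it moved by less than the replicate SD of 0.063 in the other alternatives run. Filters and the replicate block cannot change this difference, and a scaling factor per library nearly cancels within it. Those alternatives were therefore no test of the difference. Exosc3 ran from -4.42 to -4.35 with 1 library left out. Rows called higher over the whole table numbered 667 when only rows averaging 2 FPKM were tested, 1797 under median-of-ratios scaling and 719 to 2123 with 1 library left out. Rows called lower numbered 1568, 1782 and 1311 under the 3 other scalings, which moved the median row from -0.27 to 0.013, -0.048 and 0.036, and 1040 to 4808 with 1 library left out. The share of calls that were higher was 29.6% as reported and 53.4%, 47.0% and 54.7% under these scalings.

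Besides Sf3b1 above, named genes that did not pass changed sign as follows, the Integrator and SNAPc genes not being followed here. Snrnp48 was at 0.021 without the 50 highest rows, and Zrsr2 ran from -0.14 (without Exosc3-depleted replicate 2) through -0.13 (without Exosc3-present replicate 1) to 0.20 with 1 library left out. In the order median-of-ratios, quantile and without the 50 highest rows, Poldip3 was at 0.28, 0.33 and 0.31, Scnm1 at 0.18, 0.17 and 0.20, and Sf3b4 at 0.12, 0.16 and 0.14. With 1 library left out Poldip3 ran from -0.22 to 0.15, Rpph1 from -0.027 to 0.36, and Vaultrc5 from -0.18 through -0.048 to 0.19.

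With the replicate number as a replicate block, 1431 rows were called higher and 3468 lower, and the members still gave 2 higher and 2 lower. Same-numbered libraries deviated together weakly (r = 0.244 across 9336 rows, which are not independent), and the labels give no basis for pairing them. Depth was lowest among the members for Snrnp35, with 122 fragments in its shallowest library.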
